A study of Mus musculus with 2 samples.

Results

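The regions described are the antigen receptor loci of the mouse in kidney DNA: Igh (immunoglobulin heavy chain), Igk (immunoglobulin kappa light chain), Tcra/Tcrd (T cell receptor alpha, with the delta locus nested inside it) and Tcrb (T cell receptor beta). They were defined by position, and were chosen with earlier results of these data known. Members are the 25 kb bins of a fixed genome-wide grid (build mm9) that overlap the following stretches. Igh is chromosome 12, 114500001 to 117240000 (110 bins), and Igk is chromosome 6, 67510001 to 70690000 (128 bins). Tcra/Tcrd is chromosome 14, 53050001 to 54840000 (72 bins), and Tcrb is chromosome 6, 40840001 to 41510000 (28 bins). That gives 338 bins of the 105683 bins that span the mapped genome. The study mapped 5-hydroxymethylcytosine (5hmC), the oxidised form of 5-methylcytosine that TET enzymes make. Genomic DNA came from flash-frozen kidneys of male C57BL/6 mice, an inbred laboratory strain, aged 6 weeks and with no treatment named. The hMeDIP group is 1 library of DNA pulled down with an antibody against 5hmC, and the input group is 1 library of kidney DNA made without antibody. The number of animals behind the DNA, and whether both libraries share them, is not in the labels. A group of 1 library gives no replicate error, so no p-value is given. Every interval below is a 95% interval that covers counting error only, since sequenced reads are not independent molecules.

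These loci encode the receptors of B and T lymphocytes. Each holds a long array of variable (V) gene segments, then, except for Igk, diversity (D) segments, then joining (J) segments and constant (C) regions. Developing lymphocytes cut and join single V, D and J segments in an order that is particular to the cell lineage, so that each cell makes its own receptor. Kidney epithelial cells neither rearrange nor express them and carry the germline arrays. RefSeq's gene table lists, by symbol, 120 V segments and 63 V pseudogenes at Igh, 102 and 60 at Igk, 119 and 17 at Tcra/Tcrd and 22 and 13 at Tcrb. In that table the C regions lie at the low-coordinate side of the V segments in Igh and at their high-coordinate side in Igk. At Tcra/Tcrd and Tcrb they lie at the high-coordinate side of most V segments, with V segments also between the delta and alpha C regions of Tcra/Tcrd and beyond the C regions of Tcrb. The table is built on another genome build (GRCm38.p6), so only its names and gene order were used, and no gene was placed on a bin. The outermost 100 kb on the C side is called the constant end below, and the outermost 100 kb on the other side the variable end.

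The measure for each region is the hMeDIP share of fragments divided by the input share, counted by fragment midpoint. At a ratio of 1 a region equals the mean over all fragments of these libraries. The 4 loci together held 6566 hMeDIP against 12920 input fragments, at a ratio of 0.370 (0.359 to 0.381). Igk was lowest, with 1704 hMeDIP against 4402 input fragments, at a ratio of 0.282 (0.266 to 0.298). Igh had 1810 against 4245 fragments, at a ratio of 0.310 (0.294 to 0.328). Tcrb, the shortest locus, had 778 against 1775 fragments, at a ratio of 0.319 (0.293 to 0.347). Tcra/Tcrd stood apart at 0.663 (0.626 to 0.702), from 2274 and 2498 fragments.

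Loci were set against each other by the odds ratio of hMeDIP to input fragments, for 6 pairs. Tcra/Tcrd exceeded Tcrb 2.08-fold (1.87 to 2.30). Igh was 0.468 of Tcra/Tcrd (0.432 to 0.507) and Igk 0.425 of it (0.392 to 0.461). Among the other 3 loci the differences were small. Igh was 1.10 of Igk (1.02 to 1.19) and Igk 0.883 of Tcrb (0.797 to 0.979). The interval for Igh over Tcrb included 1, at 0.973 (0.879 to 1.08).

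Input was thin over the loci, which bears on every bin value. The median bin of the loci held 29 input and 12 hMeDIP fragments, against 88 and 80 for the median autosomal bin. Fewer than 10 input fragments lay in 66 of the 338 bins (19.5%), against 5.66% of autosomal bins. These 66 bins are left out of the bin counts below, 26 of them at Tcra/Tcrd, 24 at Igk, 14 at Igh and 2 at Tcrb. Pooled, they had 156 hMeDIP against 280 input fragments, at a ratio of 0.406 (0.331 to 0.495). The longest stretch without a usable bin lay within Tcra/Tcrd, chromosome 14, 53450001 to 53650000, where 8 bins in a row held 1 hMeDIP against 3 input fragments in all.

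**Figure D1:**
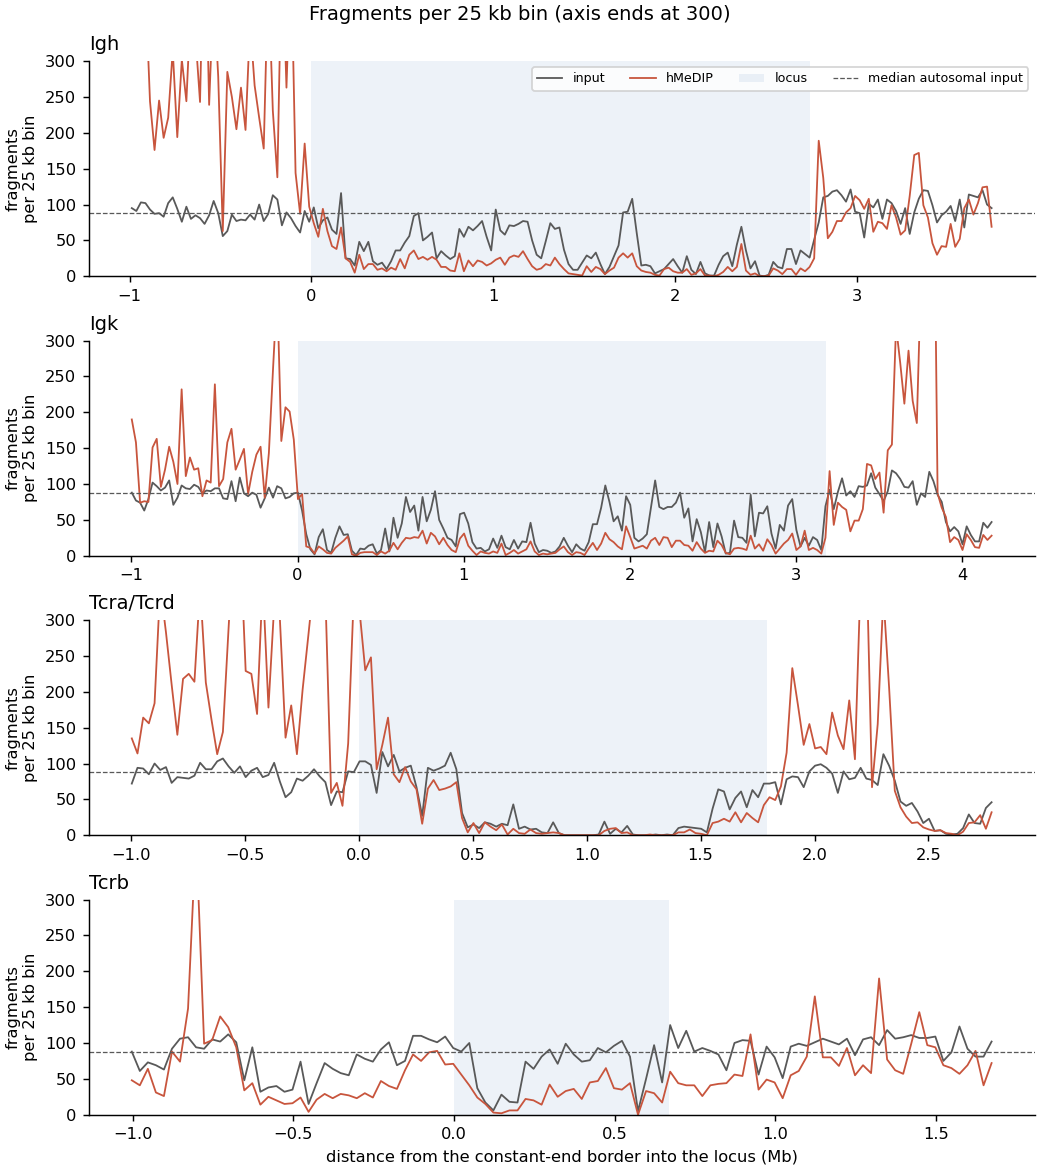
Fragments per 25 kb bin (y axis, cut at 300) of the input and hMeDIP libraries against the distance in Mb from the constant-end border, with 1 panel per locus, the locus shaded, and the median autosomal input of 88 dashed. Input drops below that median over much of each locus, most of all in the middle of Tcra/Tcrd, and fewer hMeDIP than input fragments lie in most bins of the loci.

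Most usable bins were low. A bin was called low at a log2 ratio of -1 or less, that is a ratio of 0.5 or less. By that rule 229 of 272 bins (84.2%) were low, beside 36.7% of the 93299 usable autosomal bins. The share was 96 of 104 bins at Igk, 85 of 96 at Igh, 23 of 26 at Tcrb and 25 of 46 at Tcra/Tcrd. The median bin stood at 0.267 in Igk, 0.270 in Igh, 0.290 in Tcrb and 0.468 in Tcra/Tcrd, with an autosomal median of 0.707. Those medians lie at the 11.5th, 11.9th, 14.5th and 34.1th percentile of autosomal bins. At the other end of the scale, 1 of 272 bins had a log2 ratio of 1 or more, against 11.2% of autosomal bins. It was the outermost bin at the constant end of Tcra/Tcrd, which crosses the border of the locus. Of its 313 hMeDIP and 103 input fragments, 155 and 41 lay in the 10 kb outside that border.

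Autosomal bins with little input were low more often as well, so the same count was taken within equal ranges of input, a comparison added after the data were seen. Among bins with 21 to 69 input fragments, 125 of 139 bins of the loci were low (89.9%), beside 63.4% of 16289 autosomal bins. Among bins with 75 to 101 input fragments, the middle range of the autosomes, 30 of 44 bins of the loci were low (68.2%), beside 30.5% of 48270 autosomal bins. In that fuller range the low bins numbered 8 of 11 at Igh, 9 of 10 at Igk, 11 of 13 at Tcrb and 2 of 10 at Tcra/Tcrd. Base composition and mappability of the repeated V segments were not measured, and their part in the low ratios was not tested.

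**Figure D2:**
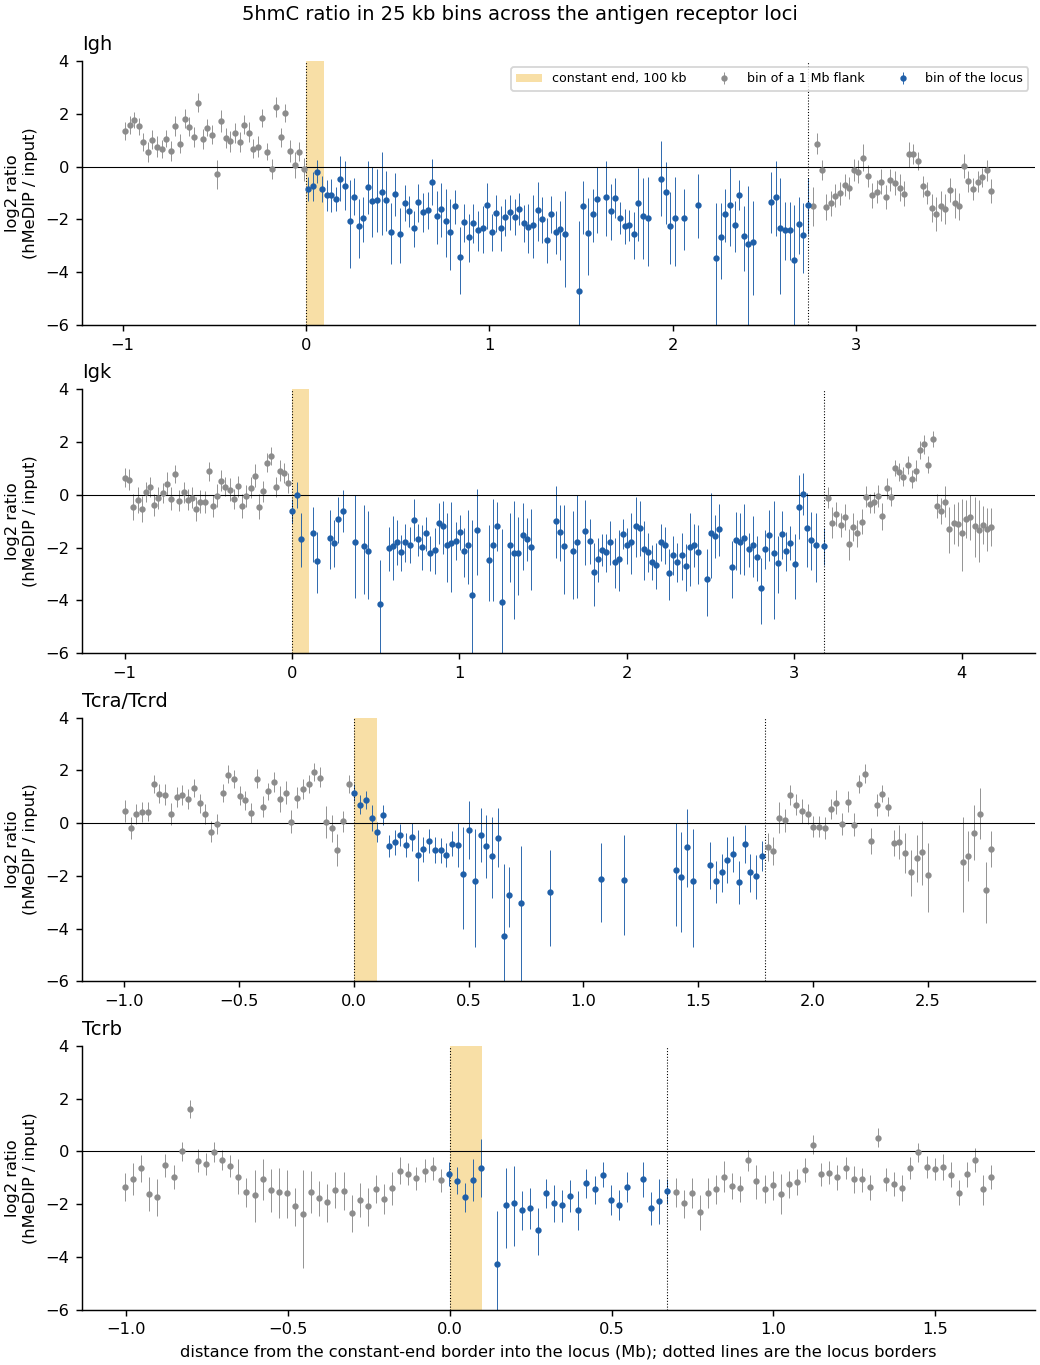
Log2 ratio (y axis) of each 25 kb bin with at least 10 input fragments against the distance in Mb from the constant-end border, with 95% counting intervals that are cut where they leave the axis. Bins of the loci are blue, bins of the 1 Mb flanks grey and the constant end is shaded. Most blue points lie below -1. Those of Tcra/Tcrd and, less so, of Igh rise towards the shaded end, and at Igk the bins next to that end are raised.

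The constant end carried more 5hmC signal than the rest of its locus, though by unequal amounts. Input per 25 kb was also higher there, at 92 against 31 fragments in the rest at Tcra/Tcrd and 81 against 37 at Igh. It was 40 against 34 at Igk and 69 against 66 at Tcrb. Across usable bins, Spearman's rho of ratio and input was 0.53 at Tcra/Tcrd, -0.06 at Igh, -0.24 at Igk and 0.05 at Tcrb. The part of input depth in these differences was not tested. At Tcra/Tcrd the constant end had 784 hMeDIP against 369 input fragments, at a ratio of 1.55 (1.36 to 1.76), above the mean of the libraries. The rest of that locus had 1490 against 2129 fragments, at a ratio of 0.509 (0.477 to 0.545), so that the constant end was 3.04-fold higher (2.63 to 3.50). On this side, in RefSeq's order, the locus closes with the delta constant region Trdc, the alpha joining segments and the alpha constant region Trac.

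At Igh the constant end had 286 against 323 fragments, at a ratio of 0.645 (0.548 to 0.758). The rest of Igh stood at 0.283 (0.266 to 0.300), a 2.28-fold difference (1.92 to 2.71). On this side Igh closes with its constant regions, which set the antibody class. At Igk, with a single constant region, the constant end had 139 against 161 fragments, at a ratio of 0.629 (0.497 to 0.794), 2.34-fold above the rest (1.84 to 2.98), which stood at 0.269 (0.253 to 0.285). A single 10 kb step of this end, chromosome 6, 70660001 to 70670000, held 60 of these hMeDIP and 29 of these input fragments. Its ratio was 1.51 (0.952 to 2.43), and the other 10 kb steps of this end stood at 0.728 or less. The constant ends of Igh and Igk therefore lay above the rest of their loci and below the mean of the libraries. Against the median autosomal bin in place of that mean they stood at 0.912 (0.775 to 1.07) and 0.889 (0.703 to 1.12), intervals that include 1. The interval for Igh over Igk included 1, at 1.03 (0.770 to 1.37).

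At Tcrb the difference was smallest. Its constant end had 156 against 277 fragments, at a ratio of 0.410 (0.335 to 0.501), 1.36-fold above the rest (1.08 to 1.69), which stood at 0.302 (0.275 to 0.332). With ends of 50 kb or 200 kb this became 1.27 (0.974 to 1.66) and 1.18 (0.950 to 1.45), intervals that include 1. The constant end of Tcra/Tcrd was 3.77-fold above that of Tcrb (2.97 to 4.79).

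Set against the variable end, a window of the same length, the constant end was 4.19-fold higher at Tcra/Tcrd (3.22 to 5.47), 3.64-fold at Igh (2.28 to 6.00) and 2.30-fold at Igk (1.42 to 3.77). At Tcrb the interval included 1, at 1.18 (0.865 to 1.60). The variable ends themselves had ratios of 0.369 (0.292 to 0.464) at Tcra/Tcrd, 0.177 (0.111 to 0.274) at Igh, 0.273 (0.177 to 0.412) at Igk and 0.349 (0.277 to 0.437) at Tcrb. The Igk value depends on the window. With 200 kb ends it fell to 1.24 (0.901 to 1.71), an interval that includes 1. The bin with the highest ratio of Igk lies within 200 kb of its variable end. That bin, chromosome 6, 67625001 to 67650000, had 35 hMeDIP against 25 input fragments, at a ratio of 1.02 (0.593 to 1.78).

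**Figure D3:**
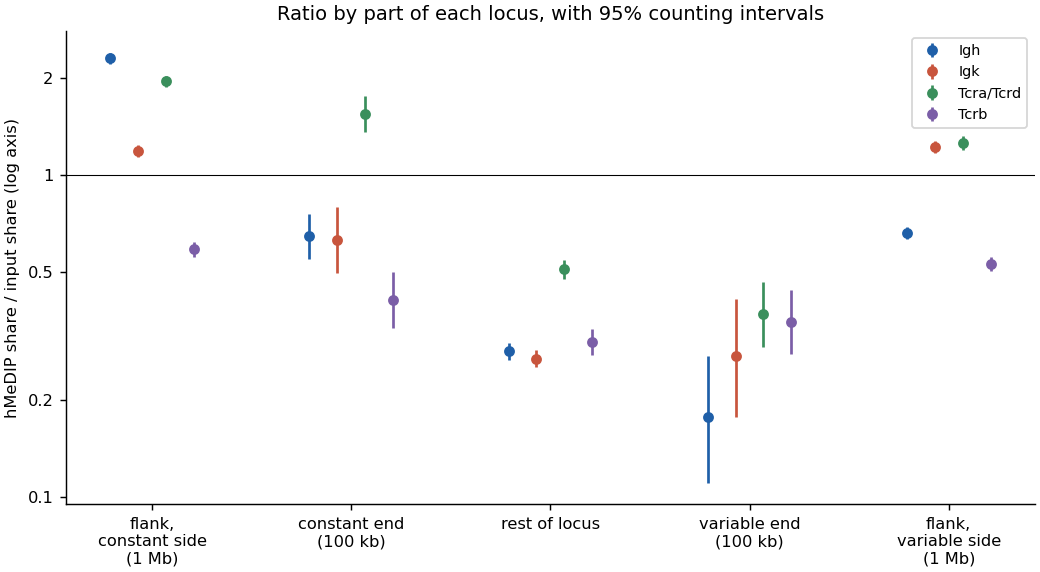
Ratio (y axis, log scale) of the flank on the constant side, the constant end, the rest of the locus, the variable end and the flank on the variable side, with 1 colour per locus and 95% counting intervals as bars. The rests of Igh, Igk and Tcrb lie between 0.269 and 0.302, and the constant end of Tcra/Tcrd lies above 1.

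Outside the constant ends, Igh, Igk and Tcrb were close to each other. The rest of Igh was 1.05 of that of Igk (0.968 to 1.14) and 0.936 of that of Tcrb (0.837 to 1.05), both intervals including 1. The rest of Igk was 0.889 of that of Tcrb (0.795 to 0.994). The rest of Tcra/Tcrd was 1.69-fold above that of Tcrb (1.50 to 1.89). This is a pooled value over an uneven stretch. From 200 to 400 kb from the constant-end border Tcra/Tcrd stood at 0.548 (0.487 to 0.616). Its variable end stood at 0.369 (0.292 to 0.464), beside 0.349 (0.277 to 0.437) for that of Tcrb.

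In steps of 200 kb from the constant end, Tcra/Tcrd was highest nearest to it. Its nearest 4 steps stood at 1.17 (1.06 to 1.28), 0.548 (0.487 to 0.616), 0.518 (0.429 to 0.624) and 0.278 (0.194 to 0.392). Its 5 later steps lay between 0.243 and 0.475, on as few as 3 input fragments. The step at 0.475 (0.295 to 0.757) came after a step at 0.334 (0.148 to 0.708), and the step farthest from the constant end stood at 0.351 (0.294 to 0.417). Across its 46 usable bins the ratio was related to distance from the constant end with Spearman's rho -0.69, as a description over bins that share 2 libraries and in which input also varies. The same rho was weaker at Igh (-0.40), Igk (-0.16) and Tcrb (-0.04). Igh stood at 0.568 (0.502 to 0.643) in the 200 kb nearest the constant end and at 0.383 (0.304 to 0.481) in the next. Every later 200 kb step of Igh lay between 0.193 and 0.347. Igk stood at 0.524 (0.427 to 0.641) and 0.424 (0.322 to 0.555) in its nearest 2 steps and between 0.201 and 0.417 after them. Its step farthest from the constant end was the one at 0.417 (0.320 to 0.541).

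Tcrb had no such slope. Its 3 full steps stood at 0.363 (0.300 to 0.438), 0.246 (0.209 to 0.288) and 0.352 (0.304 to 0.406), with the lowest value in the middle. The last, shorter step stood at 0.371 (0.292 to 0.468). With the 100 kb of the constant end left out, rho with distance was 0.54 over 21 usable bins of Tcrb, so the ratio rose with distance there. The same rho was -0.59 at Tcra/Tcrd, -0.32 at Igh and -0.10 at Igk. In RefSeq's order Tcrb also holds trypsinogen genes (Prss1, Prss2, Try4, Try5 and relatives), which encode digestive proteases of the pancreas and are no antigen receptor genes. Other protein-coding genes lie among the segments of Igh (Adam6a and Adam6b) and of Tcra/Tcrd (Olfr1507, Olfr1508, Olfr1509 and Gm36448).

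Bins varied within a locus somewhat more than counting alone gives. With 0.5 added to each count, the SD of the log2 ratio over usable bins was 0.69 at Igh, against 0.52 expected from counting, 0.64 against 0.53 at Igk, 0.98 against 0.52 at Tcra/Tcrd and 0.70 against 0.40 at Tcrb. The lowest bins rest on very few fragments. At Igh, chromosome 12, 115975001 to 116000000, had 1 hMeDIP against 19 input fragments, at a ratio of 0.038 (0.00092 to 0.241). At Igk, chromosome 6, 70150001 to 70175000, had 3 and 38 and a ratio of 0.057 (0.011 to 0.181). The lowest bins of Tcra/Tcrd (chromosome 14, 54175001 to 54200000, with 1 and 14 fragments) and of Tcrb (chromosome 6, 41350001 to 41375000, with 2 and 28) both had a ratio of 0.052.

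The highest bins lay at or near the constant end, apart from Igk. There a bin near the constant end, chromosome 6, 70650001 to 70675000, came close to the highest. It had 86 hMeDIP against 63 input fragments, at a ratio of 0.994 (0.710 to 1.40). At Igh, chromosome 12, 114550001 to 114575000, had 94 hMeDIP against 78 input fragments, at a ratio of 0.877 (0.643 to 1.20). At Tcra/Tcrd the outermost bin, chromosome 14, 54825001 to 54850000, had 313 against 103 fragments, at a ratio of 2.21 (1.77 to 2.79), and it reaches past the border of the locus. At Tcrb the highest bin, chromosome 6, 41400001 to 41425000, had 15 against 17 fragments, at a ratio of 0.642 (0.299 to 1.37). The other outermost bins at the constant end had ratios of 0.561 (0.409 to 0.768) at Igh, 0.654 (0.476 to 0.896) at Igk and 0.556 (0.402 to 0.765) at Tcrb. The bins of Igk and Tcrb also cross the border, and that of Tcrb lies mostly outside it. In 10 kb steps Tcrb stood at 0.372 (0.215 to 0.628) just inside the border and at 0.689 (0.421 to 1.12) just outside. The outermost bins at the variable end had 0.364 (0.172 to 0.734) at Igh, 0.264 (0.160 to 0.422) at Igk, 0.425 (0.283 to 0.630) at Tcra/Tcrd and 0.349 (0.252 to 0.479) at Tcrb. Apart from that of Tcra/Tcrd they also cross the border, and that of Tcrb lies mostly outside it.

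The flanks were higher than the loci in all 4 cases. Against both 1 Mb flanks together, Igh was 0.215 (0.202 to 0.229), Igk 0.234 (0.220 to 0.250), Tcra/Tcrd 0.395 (0.370 to 0.422) and Tcrb 0.576 (0.525 to 0.632). The contrast was widest on the constant side of Igh, where the flank had 10922 hMeDIP against 3445 input fragments, at a ratio of 2.31 (2.22 to 2.40). The nearest protein-coding genes there in RefSeq's order include Tmem121 and Crip1. The flank on the variable side of Igh, towards Zfp386 and Vipr2, stood at 0.660 (0.630 to 0.691). Igh was thus 0.135 of its flank on the constant side (0.126 to 0.144) and 0.470 of the other (0.437 to 0.506).

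The flanks of Igk had similar ratios, 1.19 (1.14 to 1.24) on the constant side, towards Rpia and Eif2ak3, and 1.22 (1.17 to 1.28) on the variable side. Tcra/Tcrd lay between a flank at 1.96 (1.88 to 2.04) on the constant side, towards the housekeeping gene Dad1, and one at 1.26 (1.19 to 1.32) on the variable side, where olfactory receptor genes adjoin. The flanks of Tcrb were low on both sides, at 0.587 (0.556 to 0.619) on the constant side and 0.528 (0.503 to 0.555) on the variable side, and 25 and 22 of the 40 bins in these flanks were low, beside 36.7% of autosomal bins. On the variable side of the other loci, low bins numbered 15 of 40 at Igk, 14 of 40 at Igh and 9 of 35 usable bins at Tcra/Tcrd. On the constant side they numbered 0 of 40 at Igh and at Igk and 1 of 40 at Tcra/Tcrd.

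The bins across each border were compared. On the constant side of Igk the nearest 2 bins outside stood at 1.36 (1.04 to 1.78) and 1.78 (1.37 to 2.34). The bin that crosses this border stood at 0.654 (0.476 to 0.896), without overlap, but the next bin inside stood at 0.994 (0.710 to 1.40), with overlap. In 10 kb steps Igk stood at 0.569 (0.323 to 0.990) just inside this border and at 1.21 (0.757 to 1.98) just outside, with overlap. On the variable side of Igk the nearest 2 bins outside stood at 0.934 (0.705 to 1.24) and 0.482 (0.320 to 0.719). The bin that crosses that border stood at 0.264 (0.160 to 0.422), an interval that overlaps only that of the farther bin. Going outward there, 14 bins came before any that reached the mean of the libraries. At Igh the variable side had a raised bin close to the border. The nearest bin outside, chromosome 12, 117250001 to 117275000, stood at 0.357 (0.212 to 0.587), the next at 1.83 (1.40 to 2.43), and the 2 after it at 0.907 and 0.344. Of the 40 bins in that flank, 6 were above the mean. On the constant side of Igh the nearest 2 bins stood at 0.929 (0.681 to 1.27) and 1.48 (1.15 to 1.92), beyond a bin at 0.561 (0.409 to 0.768), with intervals that overlap for the nearest. On the constant side of Tcra/Tcrd no step was seen at the border, with 2.80 (2.21 to 3.58) and 1.05 (0.793 to 1.39) outside and 2.21 (1.77 to 2.79) in the bin that crosses it. On its variable side the nearest bins had 0.536 (0.369 to 0.775) and 0.482 (0.329 to 0.701). At Tcrb they had 0.468 (0.341 to 0.637) and 0.641 (0.477 to 0.862) on the constant side, and 0.344 (0.235 to 0.498) and 0.255 (0.174 to 0.367) on the variable side. Going outward from Tcrb, 31 bins on the constant side and 17 on the variable side came before any that reached the mean of the libraries.

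**Figure D4:**
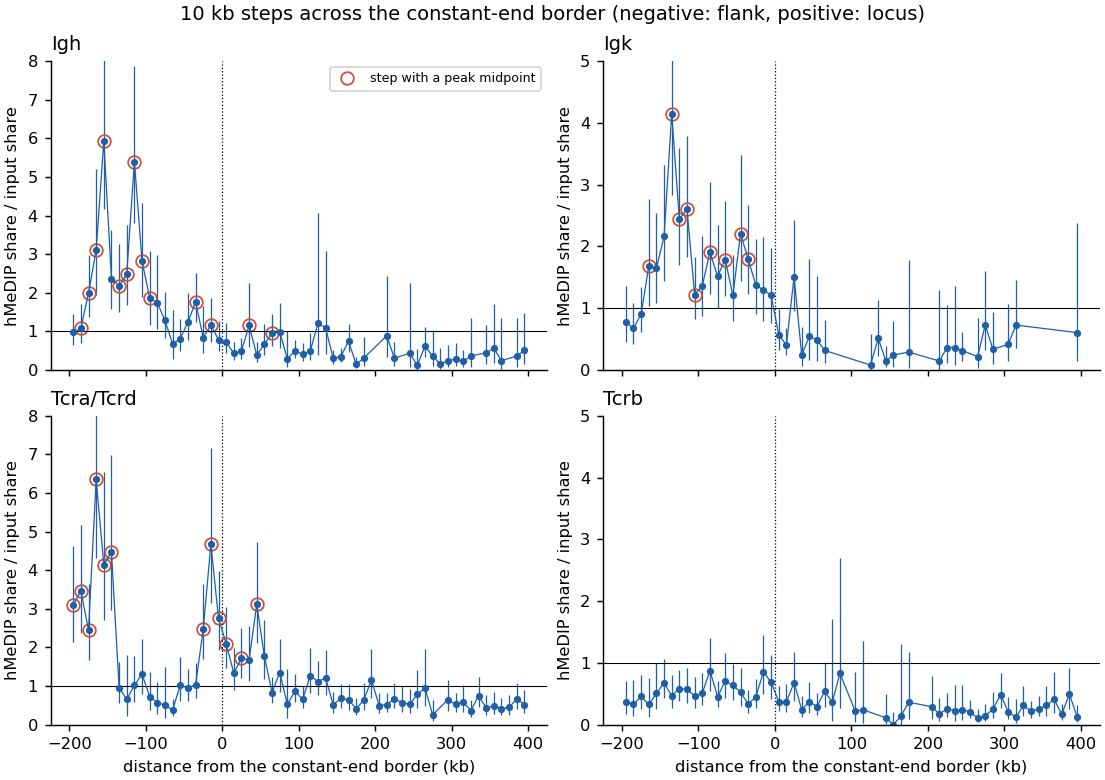
Ratio (y axis) in 10 kb steps with at least 5 input fragments against the distance in kb from the constant-end border, negative in the flank and positive in the locus, with 95% counting intervals cut at the axis and steps that hold a peak midpoint circled. Tcra/Tcrd stays above 1 for the 60 kb inside the border, Igk and Igh lie mostly below 1 inside it, and Tcrb stays below 1 throughout.

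Peaks called by the authors were rare in the loci. Of 92654 peaks, 8 had their midpoint there, or 0.955 per Mb (0.412 to 1.88, exact Poisson), against 37.3 per Mb of the autosomes. Usable bins with a peak midpoint numbered 7 of 272, beside 35.4% of autosomal bins. Tcra/Tcrd held 5 peaks, Igh 3, and Igk and Tcrb 0. The hMeDIP library held only 12 fragments in the median bin of the loci, and the part of this depth in the low number of peaks was not tested. The flanks held 134 peaks on the constant side of Igh and 10 on its variable side, 36 and 44 beside Igk, 106 and 36 beside Tcra/Tcrd, and 9 and 6 beside Tcrb.

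Of the 8 peaks, 6 lay in the constant ends of Tcra/Tcrd and Igh, and the constant ends of Igk and Tcrb held 0. The 4 constant ends, of 100 kb each in 8.38 Mb, held 1365 of the 6566 hMeDIP fragments of the loci. Peaks were called on hMeDIP signal, so a high ratio inside any of the 8 follows from the call. The intervals of these ratios do not allow for that. At Tcra/Tcrd 4 peaks lay within 44 kb of the border. The peak at chromosome 14, 54795784 to 54796946, had 24 hMeDIP against 4 input fragments, at a ratio of 4.37 (1.50 to 17.3). Its neighbour at 54799207 to 54800289 had 19 and 1 fragments, that at 54810701 to 54812002 had 27 and 9 with a ratio of 2.18 (0.997 to 5.28), and that at 54833898 to 54835116 had 26 and 4. At Igh the peaks in the constant end were chromosome 12, 114538226 to 114538841, with 14 and 1 fragments, and 114560498 to 114561092, with 19 and 2. These 6 peaks were 595 to 1302 bp wide.

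In the sequence outside the constant ends, 2 peaks stood alone. At Igh, chromosome 12, 116852348 to 116853061, 2.35 Mb from the constant-end border, had 30 hMeDIP against 3 input fragments, at a ratio of 7.28 (2.26 to 37.3). Its score of 114.84, the highest among the 8, exceeded that of 67.7% of all peaks. The 25 kb bin around it still had a ratio of 0.475 (0.319 to 0.701). At Tcra/Tcrd, chromosome 14, 54414010 to 54414902, had 19 against 3 fragments, at a ratio of 4.61 (1.36 to 24.3).

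The strongest peaks by score in the flanks were larger. On the constant side of Igh, chromosome 12, 113572039 to 113575867, had 143 hMeDIP against 13 input fragments. On the variable side, chromosome 12, 117286803 to 117289215, had 73 and 4, in the bin where the ratio first exceeded 1. The strongest flank peaks of Igk were chromosome 6, 70821415 to 70823138 (64 and 1 fragments) and 66850307 to 66854761 (173 and 23). Those of Tcra/Tcrd were chromosome 14, 55373433 to 55377926 (129 and 14) and 52932235 to 52934959 (104 and 7). Those of Tcrb were chromosome 6, 42302751 to 42306008 (92 and 13) and 40585114 to 40586007 (26 and 5).

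With all fragments in peaks left out, the constant end was 2.83-fold above the rest of the locus at Tcra/Tcrd (2.45 to 3.28) and 2.07-fold at Igh (1.73 to 2.48). Igk and Tcrb hold no peak and did not change.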

How the data were processed

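Per the submitters' processing notes, CASAVA, Bowtie 1.0.0 and build mm9 were used, with settings not given in the sources used here. For each library the authors deposited lines of 350 bp with a strand and a count, read here from the values alone as fragments and the reads that share them. These were 11424027 hMeDIP and 8316507 input fragments. Peaks were called with MACS, per the file headers; the score in the authors' deposited list starts at 50, and the version, control and threshold of MACS are likewise unstated. The track line of the list adds a numbered range to the library's name, and whether other libraries entered the peak calling is not known.

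Fragments were assigned by midpoint. Ratios carry exact conditional binomial (Clopper-Pearson) intervals, and comparisons of 2 regions are conditional odds ratios with exact intervals (scipy 1.17.1, numpy 2.4.6, pandas 2.3.3). The calculations were tested on simulated counts. Bins needed at least 10 input fragments. Named were, per locus, the highest, lowest and outermost bins, the 2 bins beyond each border, every peak of a locus and the peak with the highest score in each flank. Loci, lists and tests were chosen with earlier results of these data known. No mm9 annotation was used. Other scalings, fragment lengths, bin, end and flank sizes, thresholds, input minimums and peak rules were tried.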

Additional observations from a re-analysis of the deposited data

Results flagged for a closer look

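The number of reads per position was not used in the comparisons. In the 4 loci, 46 of 6566 hMeDIP positions (0.701%, exact 95% interval 0.513 to 0.933) held 2 or more reads, against 33 of 12920 input positions (0.255%, 0.176 to 0.359). The higher share in the hMeDIP library is why it is listed here. The same gap is seen over all positions, at 1.33% of hMeDIP (1.327 to 1.340) and 0.384% of input (0.379 to 0.388), and the loci lie below these shares in both libraries. No position in the loci held more than 2 reads in either library.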

How the results depend on the processing

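Of 113 values of 19 results under alternatives, 90 stayed and 23 moved. A value stayed if it lay within the main interval, or within 1.5 times the main percentage of low bins or count of peaks. No ratio or odds ratio whose main interval excluded 1 reversed. Both other scalings raise every ratio alike. Scaled to the fragments outside peaks, Igh stood at 0.410, Igk at 0.372, Tcra/Tcrd at 0.875, Tcrb at 0.421 and the 4 loci at 0.488; centred on the median autosomal bin they stood at 0.439, 0.399, 0.938, 0.451 and 0.523. Low bins were then 190 and 178 of 272, beside 25.5% and 22.7% of autosomal bins. Without fragments in peaks the loci over their flanks became 0.314 (Igh), 0.301 (Igk), 0.565 (Tcra/Tcrd) and 0.633 (Tcrb). Flanks of 0.5 Mb gave 0.232 for Igh and 0.731 for Tcrb, and flanks of 2 Mb gave 0.194 for Igh, 0.475 for Tcra/Tcrd and 0.393 for Tcrb. Ends of 50 kb raised Tcra/Tcrd to 3.51 over the rest and 5.54 over the variable end, and ends of 200 kb lowered Igk over the variable end to 1.24. Among the 46327 peaks with the highest score 3 fell in the loci, against 8. The cause of these moves was not tested, beyond what the changed scale, window or list itself sets. No paired analysis was possible because each group has 1 library. Input depth limits single bins, above all in the middle of Tcra/Tcrd.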

Other observations

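Mitochondrial DNA, which lies outside the nucleus, had a ratio of 0.283 (0.270 to 0.296) in these libraries and the mapped part of chromosome Y 0.314 (0.304 to 0.323). The loci were set beside mitochondrial DNA after their values had been seen. Outside the constant end, the interval of the odds ratio to mitochondrial DNA ran from 0.928 to 1.08 for Igh, from 0.882 to 1.02 for Igk and from 0.962 to 1.19 for Tcrb, and each includes 1. For Tcra/Tcrd the odds ratio was 1.80 (1.66 to 1.95).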
